A study of Danio rerio with 12 samples.

Results

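DNA replication and mitosis genes were followed in whole hearts of yap +/+ and yap -/- zebrafish (Danio rerio) after sham surgery or cryoinjury. The genes were chosen by name: 46 symbols of factors that license, copy, condense, separate or divide the genome were looked for in the deposited expression table. Of these symbols, 45 were found and tpx2 was not found as a symbol. The symbol rrm2 is carried by 2 rows, so the genes fill 46 of the 24782 rows. They are 18 rows of S phase genes, 27 rows of G2 and M phase genes and mki67, a marker of cycling cells in every phase. A mean of 1 FPKM (fragments scaled by transcript length and library size) or more over the 12 libraries was required for a test, and 39 of the 46 rows passed it: 17 of S phase, 21 of G2 and M phase, and mki67. ccne2, ccnb2, ccnb3, aurka, bub1, ect2 and cenpf lay below it and are described by their values.

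The fish were 6 to 12 months old, and the hearts were taken 7 days after surgery. For cryoinjury a cold steel probe was held to the ventricle through an opening in the chest, and sham hearts were not touched with it. The 4 groups are yap +/+ sham (wild-type sham), yap +/+ cryoinjury (wild-type cryoinjury), yap -/- sham (mutant sham) and yap -/- cryoinjury (mutant cryoinjury), each with 3 libraries of poly-A RNA. The labels do not say whether a library is 1 heart or a pool, or that replicates are separate animals, so every p-value measures the spread between these libraries only. The mutant allele and the cells that carry it are not described beyond the genotype.

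A cell that enters the division cycle loads the ring-shaped MCM2-7 helicase onto its replication origins with the help of Cdc6 and Cdt1, while geminin keeps Cdt1 from loading it a further time. PCNA then clamps polymerases to the DNA, ribonucleotide reductase and thymidylate synthase supply nucleotides, and CAF-1 wraps the new strands into chromatin. In G2 and M phase, cyclin B with Cdk1 drives entry into mitosis, condensins compact the chromosomes, Aurora and Polo-like kinases organise the spindle, and the anaphase-promoting complex ends mitosis before the cell is cleaved. Adult zebrafish hearts regrow lost muscle after injury, and cardiomyocytes, epicardium, endocardium, fibroblasts and blood-derived cells can all divide in the process. Yap is the transcriptional coactivator that the Hippo pathway restrains. In RNA of a whole heart, fewer cycling cells and less of a transcript per cycling cell cannot be told apart.

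Among the libraries, 11 had an estimated depth of 0.795 to 1.18 times that of wild-type sham 1. Mutant sham 3 came as 2 columns, which were averaged, with a depth of 0.651 and 0.685, or 1.3 and 1.37 if 1 fragment is worth less there, a choice that could not be settled. All 14 cardiomyocyte markers were above 0 in every library, and their summed level was 42734 to 84568 FPKM. yap1 mRNA was 18.8 to 29.8 FPKM in the 6 wild-type and 10.1 to 14.4 FPKM in the 6 mutant libraries, so the transcript was present in the mutant hearts. Some sham libraries stood apart. Ribosomal protein mRNAs made up 38.9% of the summed FPKM of mutant sham 1, against 13.3% to 32.1% in the others. Mutant sham 2 held 919 FPKM of macrophage markers, against 106 to 202 FPKM in the other 5 sham libraries. Wild-type sham 3 held 131860 FPKM of erythroid markers, against 12972 to 92843 FPKM in the other libraries.

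After cryoinjury, mean log2 levels of DNA replication and mitosis genes were higher than after sham surgery for each of the 39 tested rows in each genotype, but no single gene passed the test in either genotype. The median log2 difference of the 39 rows was 0.95 in wild type and 0.72 in the mutant, where log2 differences are of FPKM + 1, a scale that understates the change of low genes. Over all 13969 tested genes the median was 0.19 in wild type and 0.02 in the mutant. On the plain FPKM scale the mutant means of dut, cdt1 and the second rrm2 row were higher in sham, where mutant sham 2 held the highest value: 5.35 ± 3.88 and 5.03 ± 0.45 FPKM for dut, 4.71 ± 6.07 and 3.45 ± 1.88 FPKM for cdt1, and 2.92 ± 4.33 and 2.51 ± 1.16 FPKM for the rrm2 row (SD, n = 3, sham and cryoinjury). All 46 rows, filter aside, also had a difference above 0 in both genotypes, with medians of 0.90 in wild type and 0.68 in the mutant. Scaling libraries by median of ratios moved the wild-type median of all genes from 0.19 to −0.03, and the members' median then lay 0.78 above it, against 0.76 without that scaling. Leaving out single libraries moved the mutant median of the members between 0.33 (without mutant sham 1) and 1.28 (without mutant sham 2). Not every member stayed above 0 in these fits. Members above 0 in the mutant ran from 36 (without mutant sham 3, where 40 were tested) to 39. In wild type they ran from 38 (without wild-type cryoinjury 2) to 40 (without mutant sham 1, where 40 were tested). The share of all genes above 0 was not counted in these fits. S phase rows and G2 and M phase rows had medians of 0.92 and 0.95 in wild type and of 0.68 and 0.77 in the mutant.

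Genes were tested with limma on log2(FPKM + 1), with the spread shared by all 4 groups and p adjusted over all 13969 genes by Benjamini-Hochberg at 0.05. In wild type limma called 0 of all genes (0%) and 0 members, whose lowest adjusted p was 0.485. At an unadjusted p under 0.05, 11 of 39 members were higher in wild type, against 7.85% of all genes, and 0 were lower, against 0.816%. The former count was 1 without wild-type cryoinjury 1, against 4.33% of all genes, and 27 without mutant sham 2, against 11.6%. The shared spread includes mutant sham. The SD between libraries of the members' mean log2(FPKM + 1) was 1.01 there and 0.41 to 0.48 in the other groups. Fitting only the wild-type groups gave 31 of 43 members higher at an unadjusted limma p under 0.05, against 18.2% of all genes. In 11 of 39 members every wild-type cryoinjury library lay above every wild-type sham library, against 24.3% of all genes, so that share (28.2%) was close to the background. In the mutant, limma called 0 genes (0%) and 0 members, each with an adjusted p of 1. At an unadjusted p under 0.05, 2 members (gmnn and tyms) were higher in the mutant, against 1.99% of all genes, and the groups were free of overlap for gmnn alone, against 2.05% of all genes. With mutant sham 2 left out, 33 of 39 members passed an unadjusted p under 0.05 in the mutant, and the share of all genes was then 9.44%. A difference above 0, found for all 39 members in each genotype, was also found for 74.3% of all genes in wild type and for 52.5% in the mutant.

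**Figure D1:**
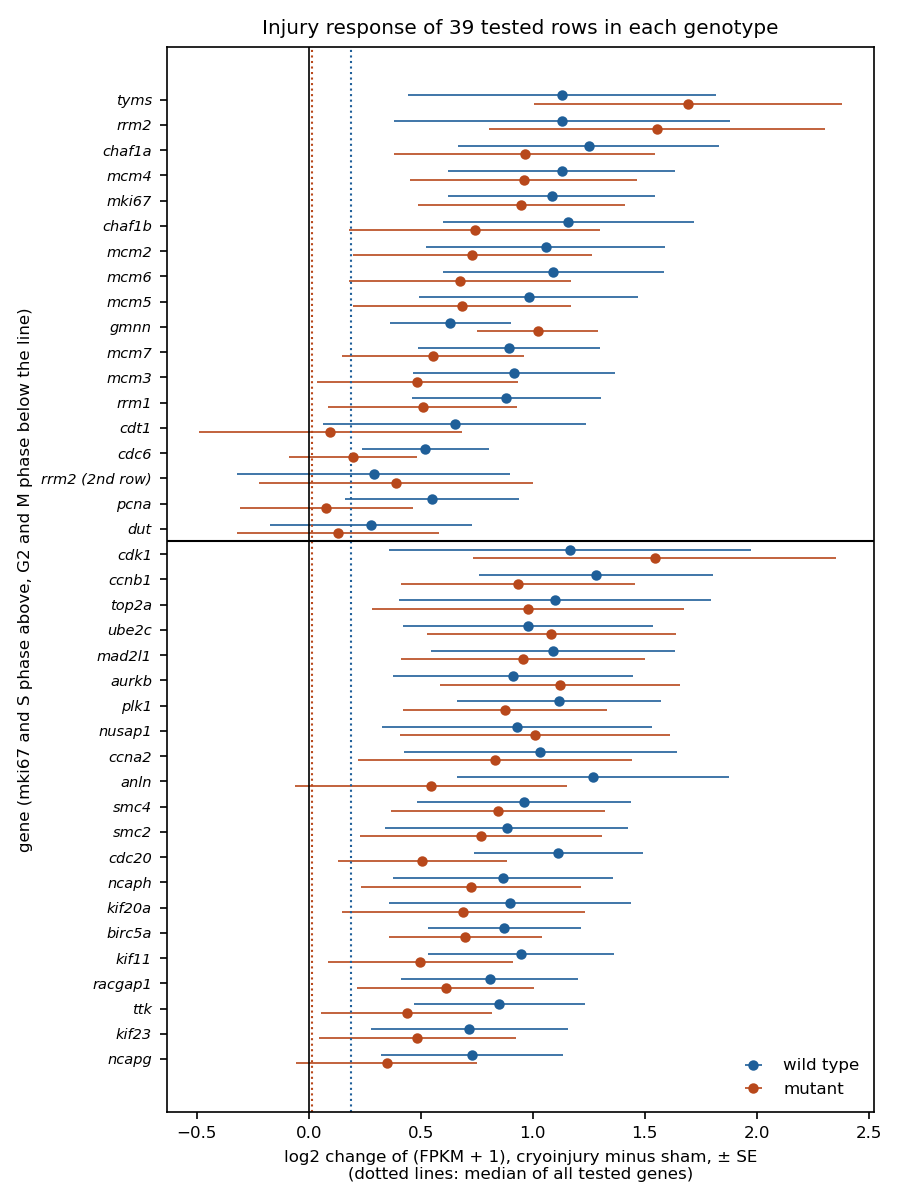
Log2 difference of (FPKM + 1) between cryoinjury and sham (x axis) for the 39 tested rows (y axis), with bars of 1 standard error, in wild type (blue) and mutant (brown); dotted lines mark the medians of all tested genes, 0.19 and 0.02. Every point lies right of 0, from 0.28 for dut to 1.28 for ccnb1 in wild type and from 0.08 for pcna to 1.69 for tyms in the mutant.

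Averaged over the genotypes, cryoinjury minus sham had a median log2 difference of 0.83 over the 39 members, against 0.10 over all genes, and all 39 were above 0, against 68% of all genes. All 6 cryoinjury libraries lay above all 6 sham libraries for 0 members, against 0.43% of all genes. At an unadjusted p under 0.05, 27 of 39 members were higher (12 of S phase, 14 of G2 and M phase, and mki67), against 8.24% of all genes. After Benjamini-Hochberg adjustment limma called 0 members and 9 genes of the whole table, 0.0644%, and the lowest adjusted p of a member was 0.166, for gmnn. Leaving out mutant sham 2 made limma call 15 of the 39 members: mki67, tyms, mcm2, mcm4, mcm6 and 10 G2 and M phase genes (ccnb1, birc5a, cdc20, smc4, kif11, plk1, ube2c, cdk1, aurkb and nusap1). In that fit 3.09% of all genes were called. The members' log2 differences ran from 0.99 for birc5a to 1.88 for cdk1, and their adjusted p from 0.0236 for mki67 to 0.046 for nusap1. Leaving out any other single library gave 0 called members, and over all single libraries left out, the number at an unadjusted p under 0.05 ran from 9 without mutant sham 1, against 6.52% of all genes, to 37 without mutant sham 2, against 17.6%. Weighting each library by its estimated quality gave 6 called members (ccnb1, mki67, gmnn, plk1, birc5a and cdc20) against 2.08% of all genes.

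A few libraries accounted for most of the overlap between groups. In wild type, cryoinjury 2 lay above all 3 sham libraries in 13 of 39 members, above 2 of them in 23 and above 1 in 3. Leaving it out separated the wild-type groups for 36 of 39 members, against 33% of all genes, and leaving out wild-type sham 1 separated 34, against 30.8%. Leaving out wild-type sham 2, sham 3, cryoinjury 1 or cryoinjury 3 separated 11, 12, 12 and 11 members, against 37.4%, 30.2%, 30.9% and 29.8% of all genes. In the mutant, sham 2 exceeded 2 of the 3 cryoinjury libraries in 26 members and all 3 of them in 11. Without mutant sham 2 the mutant groups did not overlap for 36 of 39 members (14 of S phase, all 21 of G2 and M phase, and mki67), against 16.7% of all genes. Leaving out mutant sham 1 or 3 left 1 such member each, against 3.87% and 3.4% of all genes, and leaving out mutant cryoinjury 1, 2 or 3 left 1, 1 and 2, against 4.32%, 5.47% and 5.15%.

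Markers of several other cell types were also read in these comparisons. In wild type the mean FPKM after cryoinjury was higher for all 15 macrophage markers found, all 12 pan-leukocyte markers, all 14 fibroblast and matrix markers and all 9 epicardial markers. The mutant showed this for 12, 10, 12 and 7 of them. Wild-type means were higher after cryoinjury for 3 of 8 neutrophil, 3 of 14 cardiomyocyte, 6 of 11 endothelial and endocardial, 9 of 11 lymphocyte, 9 of 11 erythroid and 7 of 9 blood progenitor markers, and mutant means for 5, 9, 3, 4, 7 and 4 of them. Macrophage markers had sums of 106 to 176 FPKM across wild-type sham libraries and of 291 to 428 FPKM across wild-type cryoinjury libraries, and fibroblast and matrix markers had 258 to 602 FPKM and 1181 to 1969 FPKM. For pan-leukocyte markers these ranges were 169 to 284 FPKM and 315 to 651 FPKM, and for epicardial markers 720 to 1177 FPKM and 1602 to 2370 FPKM. In the mutant, macrophage markers summed to 130, 919 and 202 FPKM in the 3 sham libraries and to 669, 868 and 350 FPKM in the cryoinjury libraries, and fibroblast and matrix markers to 117, 2129 and 842 FPKM and to 1510, 1124 and 1483 FPKM. None of the macrophage, pan-leukocyte, fibroblast and matrix or epicardial markers was at 0 in any library. Which cells the replication and mitosis transcripts came from, and the part of these cell types in the differences, was not tested.

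mki67 (gene 564521), whose protein coats mitotic chromosomes, stood at 2.15, 2.37 and 1.03 FPKM in wild-type sham and at 5.7, 3.05 and 6.57 FPKM in wild-type cryoinjury. Mutant values were 0.25, 4.12 and 0.605 FPKM in sham and 2.81, 2.52 and 4.52 FPKM in cryoinjury. The wild-type groups did not overlap, while mutant sham 2 lay among the mutant cryoinjury libraries and the other mutant sham libraries were low. Group means were 1.85 ± 0.719 FPKM (SD, n = 3) and 5.11 ± 1.83 FPKM in wild type, and 1.66 ± 2.14 FPKM and 3.28 ± 1.08 FPKM in the mutant. The log2 difference with its standard error was 1.08 ± 0.46 in wild type (limma adjusted p = 0.565) and 0.95 ± 0.46 in the mutant (adjusted p = 1), where it came to 0.55 with mutant sham 1 left out and 1.57 with mutant sham 2 left out.

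**Figure D2:**
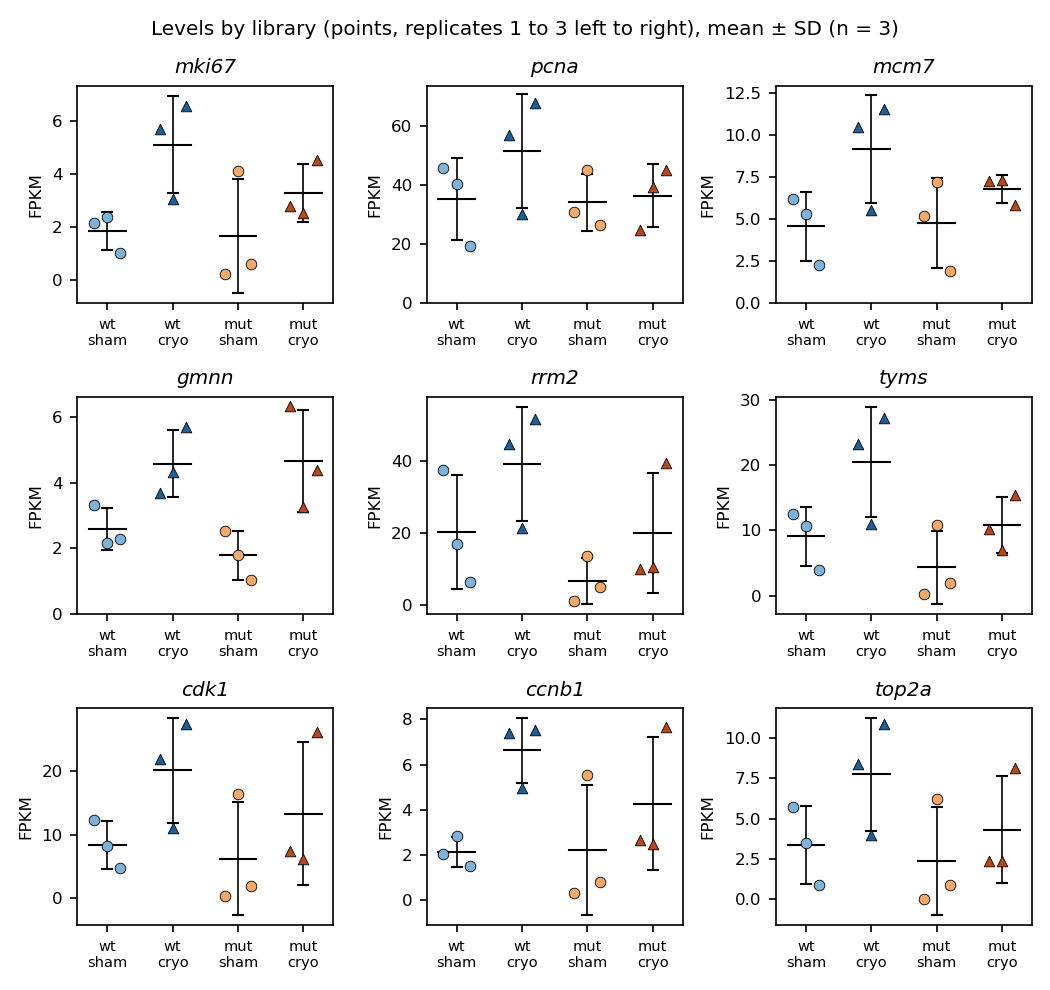
FPKM (y axes, 1 scale per gene) of mki67, 5 S phase genes and 3 G2 and M phase genes in each library of the 4 groups (points, replicates 1 to 3 from left to right), with the mean (long line) and SD (bars, n = 3). In mki67, gmnn and ccnb1 the wild-type groups are apart, gmnn alone is apart in the mutant, and the middle point of mutant sham is high in 8 of the 9 genes.

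Among the licensing genes, which prepare replication origins, all 9 tested rows had a difference above 0 in each genotype, with a median log2 difference of 0.92 in wild type and 0.68 in the mutant. mcm7 (gene 192333), a subunit of the replicative helicase and the licensing gene with the highest mean FPKM, measured 6.16, 5.26 and 2.25 FPKM in wild-type sham and 10.44, 5.51 and 11.53 FPKM in wild-type cryoinjury. Mutant libraries measured 5.19, 7.2 and 1.905 FPKM after sham surgery and 7.24, 7.31 and 5.82 FPKM after cryoinjury. The wild-type groups overlapped through cryoinjury 2 and sham 1, and the mutant groups through sham 2. The log2 difference was 0.89 ± 0.41 in wild type and 0.55 ± 0.41 in the mutant, with limma adjusted p of 0.572 and 1. Mutant mcm7 came to 0.67 with mutant sham 1 left out and 0.87 with mutant sham 2 left out, and to 0.12 with mutant sham 3 left out.

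gmnn (gene 368320) encodes geminin, which binds Cdt1 and blocks repeated licensing. Its wild-type values were 3.31, 2.17 and 2.28 FPKM in sham and 3.69, 4.33 and 5.68 FPKM in cryoinjury, and its mutant values 2.53, 1.79 and 1.035 FPKM and 6.34, 3.27 and 4.37 FPKM. Cryoinjury and sham libraries were apart in both genotypes, which held for no other member. The mutant log2 difference, 1.02 ± 0.27, came with an unadjusted p of 0.00268 and an adjusted p of 1, and the wild-type one was 0.63 ± 0.27 (limma adjusted p = 0.564). Over both genotypes the difference was 0.83 ± 0.19, with an adjusted p of 0.166.

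The other MCM subunits, mcm2 to mcm6, had wild-type log2 differences of 0.92 ± 0.45 for mcm3 to 1.13 ± 0.51 for mcm4, and mutant ones of 0.49 ± 0.45 for mcm3 to 0.96 ± 0.51 for mcm4. The 6 subunits form a hexamer with 1 copy of each, and within a library their FPKM values lay 1.56 to 3.93 times apart from lowest to highest in 11 libraries. In mutant sham 1 the ratio was 18.5, with mcm7 at 5.19 FPKM and mcm2 at 0.28 FPKM. cdc6, which loads the helicase, had differences of 0.52 ± 0.29 in wild type and 0.20 ± 0.29 in the mutant. cdt1, its partner, had 0.65 ± 0.59 and 0.10 ± 0.59. The latter came to −0.395 with mutant sham 1 left out and 0.94 with mutant sham 2 left out. Of all libraries, cdt1 was highest in mutant sham 2, at 11.72 FPKM against 0.89 to 5.62 FPKM elsewhere. The ratio of cdt1 to gmnn was 6.55 in that library and 0.395 to 1.37 in the other 11.

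At the fork and in chromatin assembly, pcna (gene 30678), the sliding clamp of the polymerases, had the highest mean FPKM of all members. It measured 45.85, 40.3 and 19.47 FPKM in wild-type sham and 57.1, 30.13 and 67.71 FPKM in wild-type cryoinjury, and in the mutant 30.91, 45.08 and 26.515 FPKM and 24.66, 39.17 and 45.26 FPKM. The groups overlapped widely in both genotypes, and the mutant libraries of both treatments covered nearly the same range. Its log2 difference was 0.55 ± 0.39 in wild type (limma adjusted p = 0.679) and 0.08 ± 0.39 in the mutant, the lowest mutant value of any member (adjusted p = 1). Leaving out single mutant libraries moved the latter between −0.10 and 0.33, and with mutant sham 1 left out dut (−0.40) was the lowest.

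chaf1a (gene 563212) and chaf1b encode subunits of CAF-1, the chaperone that places histones on new DNA. chaf1a stood at 5.51, 3.06 and 0.68 FPKM in wild-type sham and 7.39, 4.9 and 11.06 FPKM in wild-type cryoinjury, and in the mutant at 0.26, 5.22 and 0.99 FPKM and 3.32, 3.13 and 5.5 FPKM. For chaf1a, wild-type cryoinjury 2 lay under wild-type sham 1, and mutant sham 2 lay above mutant cryoinjury 1 and 2. Its wild-type difference, 1.25 ± 0.58 (limma adjusted p = 0.572), was the highest of the S phase rows, and the mutant difference was 0.96 ± 0.58 (adjusted p = 1), or 0.47 with mutant sham 1 left out and 1.62 with mutant sham 2 left out. For chaf1b the differences were 1.16 ± 0.56 and 0.74 ± 0.56.

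Nucleotide supply was represented by 5 tested rows, with a median log2 difference of 0.88 in wild type and 0.51 in the mutant. rrm2 (gene 30733), the small subunit of ribonucleotide reductase, measured 37.56, 16.92 and 6.46 FPKM in wild-type sham and 44.82, 21.47 and 51.62 FPKM in wild-type cryoinjury, and in the mutant 1.31, 13.69 and 5.11 FPKM and 10.07, 10.77 and 39.4 FPKM. Wild-type cryoinjury 2 lay under wild-type sham 1, and mutant sham 2 lay above mutant cryoinjury 1 and 2. The log2 difference was 1.13 ± 0.75 in wild type (limma adjusted p = 0.66) and 1.56 ± 0.75 in the mutant (adjusted p = 1), or 0.88 with mutant sham 1 left out and 2.21 with mutant sham 2 left out. tyms (gene 81540), which makes thymidylate, measured 12.58, 10.72 and 3.94 FPKM and 23.32, 10.98 and 27.22 FPKM in wild-type sham and cryoinjury. In the mutant it measured 0.27, 10.76 and 1.915 FPKM and 10.28, 6.95 and 15.47 FPKM. Mutant sham 1 and 3 were the lowest of the 12 libraries for tyms, and mutant sham 2 lay above mutant cryoinjury 1 and 2. The mutant difference of tyms, 1.69 ± 0.69 (limma adjusted p = 1), was the highest of any member, beside 1.13 ± 0.69 in wild type (adjusted p = 0.639). It came to 0.96 with mutant sham 1 left out and 2.56 with mutant sham 2 left out, and gmnn (1.21) and cdk1 (2.60) then ranked highest.

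dut (gene 449835), which clears dUTP so that uracil stays out of DNA, showed the smallest wild-type difference of any member. It stood at 8.62, 5.64 and 3.27 FPKM in wild-type sham and 9.56, 4.33 and 7.62 FPKM in wild-type cryoinjury, and at 1.64, 9.38 and 5.04 FPKM and 5.47, 4.57 and 5.04 FPKM in the mutant. Mutant sham 1 was the lowest library and mutant sham 2 lay above every mutant cryoinjury library. The log2 difference was 0.28 ± 0.45 in wild type and 0.13 ± 0.45 in the mutant (limma adjusted p = 0.852 and 1), and its sign turned when wild-type sham 3 (−0.02) or mutant sham 1 (−0.40) was left out, while mutant dut came to 0.59 with mutant sham 2 left out. rrm1, the large subunit of ribonucleotide reductase, had 0.88 ± 0.42 in wild type and 0.51 ± 0.42 in the mutant. The second row named rrm2 (gene 100330864) ran apart from the rest, with a wild-type difference of 0.29 ± 0.61 and a mutant difference of 0.39 ± 0.61. Its highest value was 7.91 FPKM in mutant sham 2, against 0.175 to 3.85 FPKM elsewhere. RefSeq names the first of these rows rrm2l, and how reads were divided between such copies is not given in the sources used here.

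Among the mitotic cyclins and their kinase, cdk1 (gene 80973) had the highest mean. Its values were 12.25, 8.23 and 4.69 FPKM in wild-type sham and 21.93, 11.12 and 27.34 FPKM in wild-type cryoinjury, and 0.3, 16.39 and 1.915 FPKM and 7.45, 6.11 and 26.2 FPKM in the mutant. From 0.3 FPKM in mutant sham 1 to 27.34 FPKM in wild-type cryoinjury 3, cdk1 spanned a wide range, and cryoinjured and sham libraries overlapped in both genotypes. The log2 difference was 1.17 ± 0.81 in wild type (limma adjusted p = 0.676) and 1.54 ± 0.81 in the mutant (adjusted p = 1), the highest mutant value of the G2 and M phase genes, which came to 0.73 with mutant sham 1 left out and 2.60 with mutant sham 2 left out.

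ccnb1 (gene 58025), the cyclin that activates Cdk1 at the entry into mitosis, measured 2.04, 2.86 and 1.53 FPKM in wild-type sham and 7.39, 4.98 and 7.53 FPKM in wild-type cryoinjury. Every wild-type cryoinjury library lay above every wild-type sham library. In the mutant the values were 0.33, 5.54 and 0.82 FPKM after sham surgery and 2.67, 2.49 and 7.65 FPKM after cryoinjury, with sham 2 above cryoinjury 1 and 2. The wild-type log2 difference, 1.28 ± 0.52 (limma adjusted p = 0.543), was the highest of any member, and the mutant one was 0.94 ± 0.52 (adjusted p = 1), or 0.48 with mutant sham 1 left out and 1.63 with mutant sham 2 left out. ccna2, the cyclin of S phase and G2, had differences of 1.03 ± 0.61 and 0.83 ± 0.61. ccnb2 and ccnb3, further B-type cyclins, were below the filter, with means of 0.713 ± 0.457 FPKM and 1.44 ± 0.65 FPKM for ccnb2 and 0.653 ± 0.095 FPKM and 1.61 ± 0.507 FPKM for ccnb3 in wild-type sham and cryoinjury. ccne2, the cyclin of the G1 to S transition, lay below it too, with wild-type means of 0.74 ± 0.269 FPKM in sham and 1.65 ± 0.523 FPKM in cryoinjury.

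The kinases of the spindle and their passenger complex had a median log2 difference of 0.91 in wild type and 0.88 in the mutant over 3 tested genes. aurkb (gene 791894), the kinase that corrects wrong attachments of chromosomes, stood at 3.48, 1.44 and 3.63 FPKM in wild-type sham and at 8.51, 2.97 and 7.93 FPKM in wild-type cryoinjury. Mutant libraries were listed at 0, 3.84 and 0.625 FPKM in sham and at 2.3, 3.05 and 5.06 FPKM in cryoinjury. Wild-type cryoinjury 2 lay within the wild-type sham range, and mutant sham 2 lay above mutant cryoinjury 1 and 2. The log2 difference was 0.91 ± 0.54 in wild type (limma adjusted p = 0.632) and 1.12 ± 0.54 in the mutant (adjusted p = 1), or 0.63 with mutant sham 1 left out and 1.76 with mutant sham 2 left out.

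plk1 (gene 280649), the Polo-like kinase of mitotic entry and spindle assembly, measured 1.25, 2.01 and 0.81 FPKM in wild-type sham and 5.19, 2.13 and 5.44 FPKM in wild-type cryoinjury, and 0.28, 2.98 and 0.305 FPKM and 1.44, 2.46 and 3.89 FPKM in the mutant. birc5a (gene 373110) encodes survivin, which brings Aurora B to the centromere, and measured 1.09, 1.26 and 1.06 FPKM and 3.75, 1.9 and 3.34 FPKM in wild type. Its mutant values were 0.49, 2.55 and 0.49 FPKM and 1.44, 2.46 and 2.99 FPKM. For both genes the wild-type groups were apart and mutant sham 2 lay among the mutant cryoinjury libraries. The log2 differences in wild type were 1.12 ± 0.46 for plk1 and 0.87 ± 0.34 for birc5a (limma adjusted p = 0.543 and 0.533). In the mutant they were 0.88 ± 0.46 and 0.70 ± 0.34 (adjusted p = 1 for each). Mutant plk1 came to 0.60 with mutant sham 1 left out and 1.42 with mutant sham 2 left out, and birc5a to 0.49 with mutant sham 1 left out and 1.12 with mutant sham 2 left out. aurka, the Aurora kinase of spindle poles, was below the filter and listed at 0 in mutant sham 1 and 3, with 1.67 FPKM in mutant sham 2.

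For the checkpoint and the anaphase-promoting complex, cdc20 (gene 406353), an activator of that complex, had the lowest p of any member in wild type. It stood at 0.54, 0.73 and 0.79 FPKM in wild-type sham and 3.64, 1.63 and 2.97 FPKM in wild-type cryoinjury, and at 0.3, 3.0 and 0.665 FPKM and 1.33, 1.92 and 2.65 FPKM in the mutant. The 3 wild-type sham libraries lay close together and under all cryoinjured ones, whereas mutant sham 2 had the highest value of the mutant libraries. The wild-type log2 difference was 1.11 ± 0.38, with an unadjusted p of 0.0122 and a limma adjusted p of 0.485, and weighting libraries by quality brought the adjusted p to 0.0397. It was then 1 called member among 39, and 2.93% of all genes were called. In the mutant it was 0.51 ± 0.38 (adjusted p = 1), or 0.18 with mutant sham 1 left out and 0.99 with mutant sham 2 left out.

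ube2c (gene 566441), the ubiquitin-conjugating enzyme of the same complex, measured 4.22, 4.4 and 2.36 FPKM in wild-type sham and 12.68, 4.9 and 7.97 FPKM in wild-type cryoinjury, and 0.64, 8.22 and 1.535 FPKM and 4.77, 4.53 and 10.44 FPKM in the mutant. Its wild-type groups were narrowly apart and its mutant groups overlapped through sham 2. For ube2c the log2 difference was 0.98 ± 0.56 and 1.08 ± 0.56 in wild type and mutant (limma adjusted p = 0.627 and 1), and the latter came to 0.56 with mutant sham 1 left out and 1.81 with mutant sham 2 left out. mad2l1 and ttk, which hold the spindle checkpoint, had wild-type differences of 1.09 ± 0.54 and 0.85 ± 0.38 and mutant differences of 0.96 ± 0.54 and 0.44 ± 0.38. bub1, a checkpoint kinase of the kinetochore, was below the filter, at 0.62, 0.48 and 0.25 FPKM in wild-type sham and 1.86, 0.45 and 1.88 FPKM in wild-type cryoinjury.

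Of the spindle and kinetochore genes, nusap1 (gene 567446), which bundles spindle microtubules, measured 6.2, 4.22 and 3.16 FPKM in wild-type sham and 11.89, 5.0 and 13.03 FPKM in wild-type cryoinjury. In the mutant it measured 0.51, 9.35 and 1.835 FPKM and 4.32, 4.82 and 10.65 FPKM. Wild-type cryoinjury 2 lay under wild-type sham 1, and mutant sham 1 and 3 under all mutant cryoinjury libraries. For nusap1 the log2 difference was 0.93 ± 0.60 in wild type and 1.01 ± 0.60 in the mutant (limma adjusted p = 0.655 and 1), and the latter came to 0.39 with mutant sham 1 left out and 1.78 with mutant sham 2 left out. kif11, the motor that pushes spindle poles apart, had 0.95 ± 0.42 and 0.50 ± 0.42, and its wild-type groups did not overlap. cenpf, a kinetochore protein, was the lowest member by mean FPKM and lay below the filter, at 1.14, 0.36 and 1.22 FPKM in wild-type cryoinjury. tpx2, which carries Aurora A to the spindle, has a row without a symbol (gene 107966129) that RefSeq names tpx2, and it was kept out of all counts. It stood at 4.85, 2.86 and 1.57 FPKM in wild-type sham and 9.29, 5.38 and 8.42 FPKM in wild-type cryoinjury, and at 0.19, 7.36 and 0.51 FPKM and 4.25, 3.74 and 6.45 FPKM in the mutant. Its log2 difference was 1.14 ± 0.60 in wild type and 1.21 ± 0.60 in the mutant (limma adjusted p = 0.612 and 1).

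Chromosome condensation was represented by top2a and the condensin subunits smc2, smc4, ncapg and ncaph. top2a (gene 323733), the topoisomerase that untangles sister chromatids, measured 5.73, 3.5 and 0.86 FPKM in wild-type sham and 8.35, 3.98 and 10.88 FPKM in wild-type cryoinjury, and 0.03, 6.18 and 0.86 FPKM and 2.4, 2.4 and 8.12 FPKM in the mutant. It was close to 0 in mutant sham 1. The groups overlapped through cryoinjury 2 and sham 1 in wild type, and through sham 2 in the mutant. For top2a the log2 difference was 1.099 ± 0.70 in wild type and 0.98 ± 0.70 in the mutant (limma adjusted p = 0.651 and 1), and the latter came to 0.37 with mutant sham 1 left out and 1.77 with mutant sham 2 left out. ncapg (gene 492707) measured 2.16, 1.42 and 0.44 FPKM and 3.08, 1.5 and 3.92 FPKM in wild-type sham and cryoinjury, and 0.26, 2.09 and 0.48 FPKM and 0.94, 0.97 and 2.11 FPKM in the mutant. Its groups overlapped in the same libraries, and its mutant difference, 0.35 ± 0.40 (limma adjusted p = 1), was the lowest of the G2 and M phase genes, beside 0.73 ± 0.40 in wild type. It came to 0.09 with mutant sham 1 left out and 0.74 with mutant sham 2 left out, and kif11 (0.09) was the lowest in the former case. smc2, smc4 and ncaph had wild-type differences of 0.88 ± 0.54, 0.96 ± 0.48 and 0.87 ± 0.49 and mutant differences of 0.77 ± 0.54, 0.84 ± 0.48 and 0.72 ± 0.49.

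Cytokinesis genes were led in mean FPKM by kif23 (gene 30627), the motor of the central spindle. It measured 6.67, 4.68 and 3.25 FPKM in wild-type sham and 10.06, 6.34 and 9.12 FPKM in wild-type cryoinjury, and 1.35, 5.99 and 1.7 FPKM and 3.51, 2.21 and 7.39 FPKM in the mutant. Wild-type cryoinjury 2 lay just under wild-type sham 1, and mutant cryoinjury 1 and 2 lay under mutant sham 2. The log2 difference, 0.72 ± 0.44 in wild type, was the lowest of the G2 and M phase genes there, and it was 0.48 ± 0.44 in the mutant (limma adjusted p = 0.64 and 1). Mutant kif23 came to 0.19 with mutant sham 1 left out and 0.97 with mutant sham 2 left out, and to 0.10 with mutant cryoinjury 3 left out. racgap1, its partner in the central spindle, had 0.81 ± 0.40 and 0.61 ± 0.40, and kif20a, a further motor of that structure, 0.90 ± 0.54 and 0.69 ± 0.54. anln, the scaffold of the contractile ring, had 1.27 ± 0.61 in wild type and 0.55 ± 0.61 in the mutant. ect2, which activates the ring, was below the filter, at 0.59 ± 0.308 FPKM and 1.41 ± 0.217 FPKM (SD, n = 3) in wild-type sham and cryoinjury.

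S phase genes and G2 and M phase genes were then compared library by library. The mean of log2(FPKM + 1) over the 21 G2 and M phase genes was below that over the 17 S phase rows in all 12 libraries. Each mean depends on which genes its list holds, and the S phase rows include pcna, with a mean of 39.3 FPKM. The sign without pcna was not computed. The sign does not measure the share of cells in either phase. Their difference was −0.86, −0.66 and −0.52 in wild-type sham and −0.33, −0.76 and −0.59 in wild-type cryoinjury. In the mutant it was −0.85, −0.60 and −0.78 in sham and −0.99, −0.64 and −0.28 in cryoinjury. Group means lay between −0.74 ± 0.13 in mutant sham and −0.56 ± 0.21 in wild-type cryoinjury (SD, n = 3), and the libraries of the 4 groups overlapped. As sums over FPKM, S phase rows came to 51.9 FPKM and G2 and M phase genes to 7.31 FPKM in mutant sham 1, and to 273 and 166 FPKM in wild-type cryoinjury 3.

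**Figure D3:**
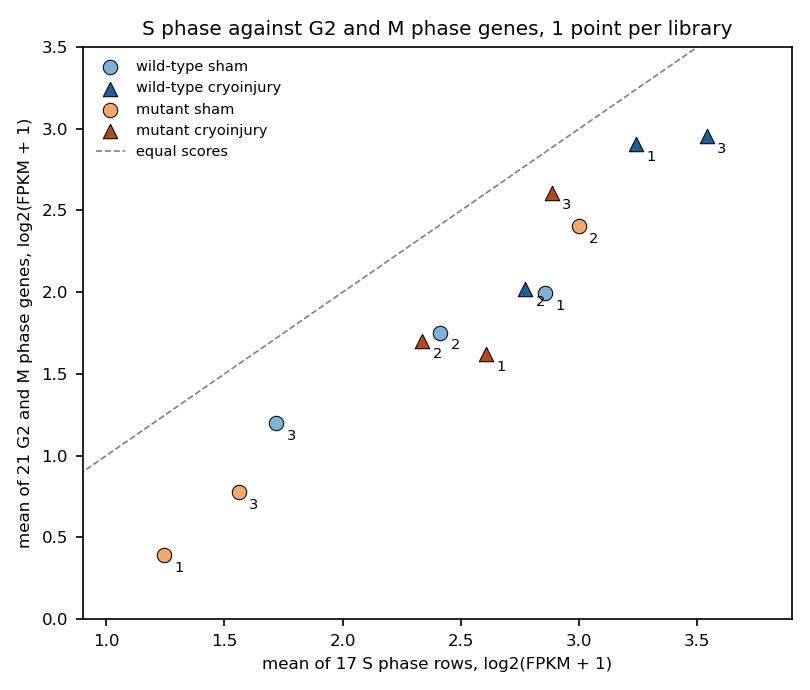
Mean log2(FPKM + 1) of the 21 tested G2 and M phase genes (y axis) against that of the 17 tested S phase rows (x axis), 1 point per library, with circles for sham, triangles for cryoinjury and the replicate number beside each point. All points lie below the dashed line of equal means, from mutant sham 1 (1.24 and 0.39) to wild-type cryoinjury 3 (3.54 and 2.95).

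The mean of log2(FPKM + 1) over all 39 members was 2.36, 2.04 and 1.42 in wild-type sham and 3.05, 2.35 and 3.21 in wild-type cryoinjury. In the mutant it was 0.76, 2.66 and 1.11 in sham and 2.06, 1.98 and 2.73 in cryoinjury. Wild-type cryoinjury 2 lay just below wild-type sham 1, and mutant sham 2 stood above mutant cryoinjury 1 and 2. Wild-type cryoinjury 3 was the highest library for 26 of 39 members (66.7%), against 7.29% of all tested genes, and wild-type cryoinjury 1 for 9 more. At the other end, mutant sham 1 was the lowest library for 31 of 39 members (79.5%), against 33.7% of all tested genes, and among G2 and M phase genes for 19 of 21. Mutant sham 1 was also the lowest library for the summed pan-leukocyte markers and for the summed fibroblast and matrix markers, at 117 FPKM each. Macrophage markers summed to 130 FPKM there and to 106 FPKM in wild-type sham 1, the lowest library for them, and were highest in mutant sham 2 (919 FPKM) and mutant cryoinjury 2 (868 FPKM). Their part in the order of the libraries was not tested.

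Mutant sham 1 was low for most members and not for all. In per cent of the wild-type sham mean, its median was 20.3 over the 18 S phase rows and 12.7 over the 27 G2 and M phase rows, against 77.3 over all tested genes. At 80% or more of that mean were cdc6, mcm7, gmnn and pcna, at 115%, 114%, 97.8% and 87.8%, and no G2 or M phase row, whereas 47.2% of all tested genes reached it. ccne2, ccnb2, aurka, aurkb and cenpf were listed at 0 in this library. Mutant sham 3 had medians of 39.0% and 27.3% for S phase and for G2 and M phase rows against 105% of all genes, and mutant sham 2 gave 159% and 184% against 129%. Ribosomal protein mRNAs were 38.9% of the summed FPKM in mutant sham 1, 18.2% in mutant sham 2 and 19.3% in mutant sham 3, and 5138 genes were at 0 in the first of them, against 3145 to 4432 in the other libraries. The part of these differences between libraries in the low values was not tested.

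**Figure D4:**
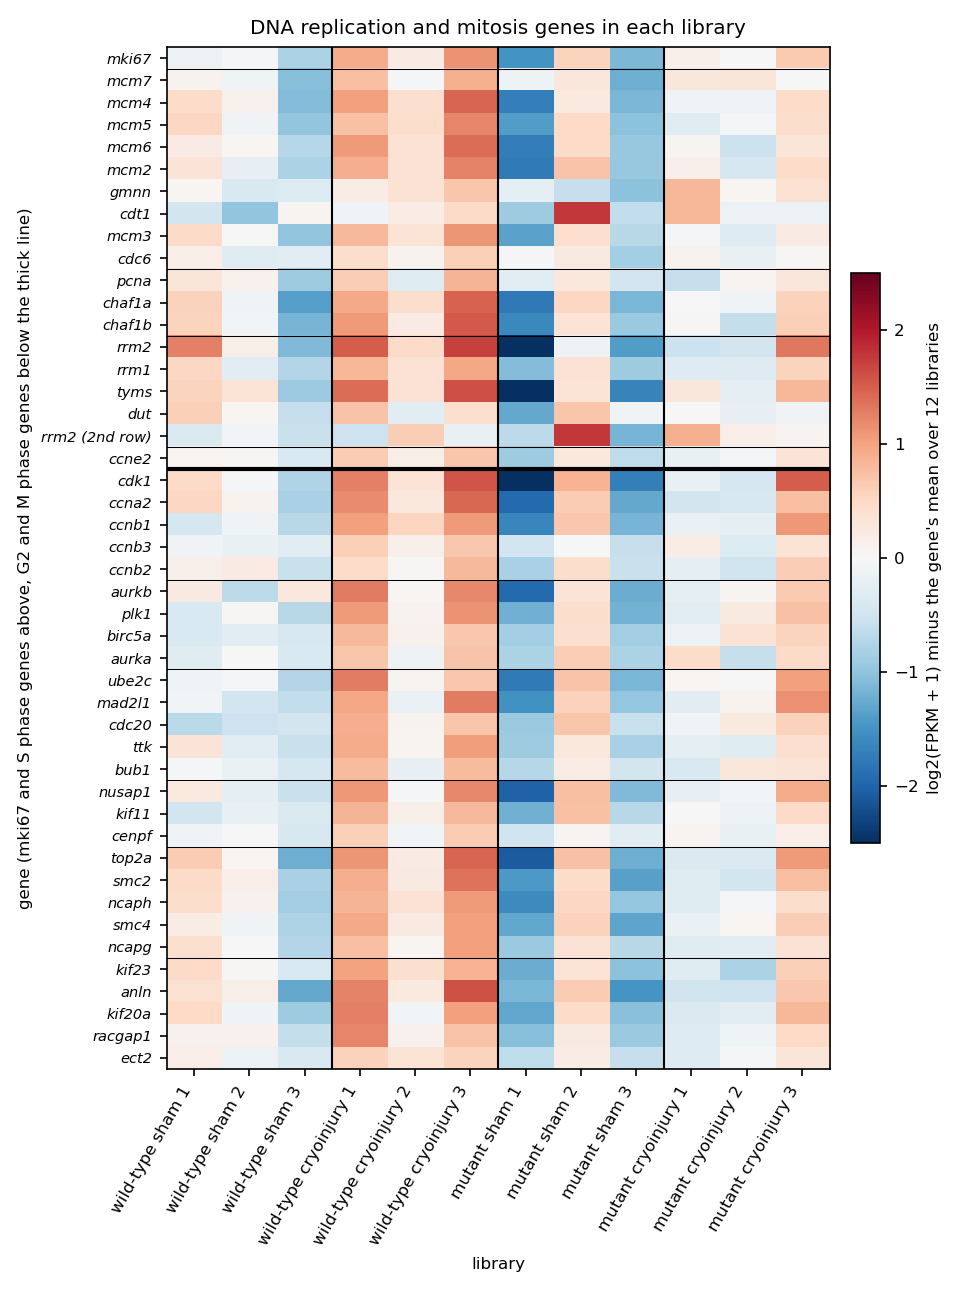
Log2(FPKM + 1) minus the gene's mean over the 12 libraries (colour) for all 46 rows (y axis, S phase above and G2 and M phase below the thick line, thin lines between roles) in each library (x axis). Wild-type cryoinjury 1 and 3, mutant cryoinjury 3 and mutant sham 2 are red in most rows, mutant sham 1 and 3 and wild-type sham 3 are blue, and cdt1 and the second rrm2 row stand out in mutant sham 2.

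Mutant and wild-type libraries were compared within each treatment. After sham surgery, 34 of 39 members had a lower mean log2 value in the mutant, with a median difference (mutant minus wild type) of −0.44 against 0.07 over all genes, of which 58.7% were above 0. limma called 0 members and 0 genes (0%), and at an unadjusted p under 0.05 it found 0 members lower, against 1.95% of all genes, and 0 higher, against 4.04%. The groups were apart for 0 members, against 3.17% of all genes lower and 7.01% higher in the mutant. The lowest p belonged to rrm2, at -1.55 ± 0.75 (adjusted p = 0.797), and tyms, at -1.39 ± 0.69 (adjusted p = 0.797). Dropping mutant sham 1 gave a median of −0.08, against 0.20 over all genes. Dropping mutant sham 2 gave −1.02, against −0.08 over all genes. The members' median was −0.24 without mutant sham 3. It was −0.18, −0.39 and −0.72 without wild-type sham 1, 2 and 3. The size of this difference thus rested on which sham libraries were counted.

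After cryoinjury, 37 of 39 members had a lower mean log2 value in the mutant, with a median difference of −0.69 against −0.11 over all genes, of which 35.1% were above 0. limma called 0 members and 0 genes (0%), and 0 members were lower at an unadjusted p under 0.05, against 3.81% of all genes. Every mutant library lay below every wild-type library for mcm3, mcm5 and mcm6, 3 of 39 members, against 12.6% of all genes. mcm6 stood at 8.16, 4.67 and 10.56 FPKM in wild-type cryoinjury and 3.61, 2.01 and 4.42 FPKM in mutant cryoinjury, a log2 difference of -0.999 ± 0.49 (limma adjusted p = 0.873). gmnn and the second rrm2 row were the exceptions, at 0.00 ± 0.27 and 0.41 ± 0.61. The median moved between −0.94 and −0.49 over leaving out each library in turn. Over both treatments the median difference was −0.57, against −0.03 over all genes, and 4 members (kif23, rrm2, tyms and mcm6) were lower at an unadjusted p under 0.05, against 5.06% of all genes, while 0 were higher, against 4.6%. All 6 mutant libraries lay below all 6 wild-type ones for 0 members, against 0.43% of all genes, and above them for 0, against 0.243%. limma called 0 members and 1 gene of the table, 0.00716%, in that comparison.

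These genotype differences ran beside other differences between the libraries. In sham libraries all 15 macrophage, all 12 pan-leukocyte and all 14 fibroblast and matrix markers and 8 of 9 epicardial markers had a higher mean in the mutant, and 10 of 14 cardiomyocyte markers had a lower one. Of all tested genes 58.7% were higher in mutant sham by mean log2 value. Macrophage markers summed to 130, 919 and 202 FPKM in the mutant sham libraries, against 106 to 176 FPKM in wild-type sham. Pan-leukocyte markers summed to 117, 1001 and 401 FPKM against 169 to 284 FPKM. Fibroblast and matrix markers summed to 117, 2129 and 842 FPKM against 258 to 602 FPKM. Epicardial sums, 1497 to 2167 FPKM, lay above the 720 to 1177 FPKM of wild-type sham. Most of each sum was krt8, at 1110 to 1441 FPKM in mutant sham and 497 to 745 FPKM in wild-type sham. In mutant sham 1, clu lay below every wild-type sham library. There krt4, aldh1a2 and tbx18 lay within the wild-type sham range, and the remaining epicardial markers above it. In cryoinjury libraries 13 of 15 macrophage markers and 7 of 9 epicardial markers had a higher mean in the mutant, while 12 of 14 fibroblast and matrix markers, 10 of 14 cardiomyocyte markers and 10 of 11 erythroid markers had a lower one. Cardiomyocyte markers summed to 72295 to 84568 FPKM in wild-type sham and 47393 to 62448 FPKM in mutant sham, and to 53429 to 68627 FPKM in wild-type cryoinjury and to 42734 to 68869 FPKM in mutant cryoinjury. Ribosomal protein mRNAs reached 32.1% of the summed FPKM in mutant cryoinjury 2 and 14.9% to 20.4% in the other cryoinjury libraries. Their part in the genotype differences of the replication and mitosis genes was not tested.

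Whether the response to cryoinjury differed between genotypes was tested as the difference of the differences. 31 of 39 members had a smaller difference in the mutant, with a median of −0.21, and the median over all genes was −0.18, with 28.3% of them above 0. limma called 0 members and 0 genes (0%), and at an unadjusted p under 0.05 there were 0 members lower, against 1.6% of all genes, and 0 higher, against 0.336%. The median standard error of a member was 0.70 on this log2 scale, larger than the median difference itself. Without mutant sham 2, 6 of 39 members lay below 0, and without mutant sham 1, 39 of 40 did. The median over all genes was −0.04 and −0.31 in these fits, and the share of all genes below 0 was not counted there. The sign of the members' median turned without mutant sham 2 (0.34) and without wild-type sham 3 (0.05). It also turned with median-of-ratios scaling (0.005) and with quality weights (0.115). With TPM and quantile scaling the median stayed below 0, at −0.25 and −0.021.

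Further genes of the same processes were read from lists of other replication genes, other mitosis genes and regulators of the cell cycle. Of 41 tested replication genes outside the members, 40 had a higher mean log2 value in wild-type cryoinjury and 33 in mutant cryoinjury, with medians of 0.44 and 0.19, beside 74.3% and 52.5% of all genes. Of 32 mitosis genes, 32 and 30 did, with medians of 0.81 and 0.59, and of 25 regulators, 21 and 16, with medians of 0.30 and 0.05. limma called 0 of them after adjustment. At an unadjusted p under 0.05, 6 replication genes, 7 mitosis genes and 5 regulators were higher in wild type, and 0, 1 and 0 in the mutant, against 7.85% and 1.99% of all genes. The regulators' shares above 0, 84% in wild type and 64% in the mutant, were the nearest of the 3 lists to those of all genes.

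gins2, a subunit of the active helicase, measured 3.29, 2.65 and 1.3 FPKM in wild-type sham and 4.68, 3.81 and 8.25 FPKM in wild-type cryoinjury, and 0.31, 2.44 and 0.81 FPKM and 3.15, 1.24 and 3.51 FPKM in the mutant. clspn, which relays replication stress, measured 1.47, 0.77 and 0.5 FPKM and 2.1, 1.3 and 3.21 FPKM in wild type and 0.12, 1.48 and 0.33 FPKM and 2.21, 0.78 and 1.67 FPKM in the mutant. For gins2 the wild-type groups were apart, and for clspn they overlapped. Over both genotypes their log2 differences were 0.86 ± 0.29 and 0.71 ± 0.25 (limma adjusted p = 0.355 and 0.38).

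incenp, the scaffold of the passenger complex, measured 3.03, 2.71 and 1.68 FPKM in wild-type sham and 7.84, 4.69 and 8.98 FPKM in wild-type cryoinjury, and 0.52, 5.56 and 1.42 FPKM and 4.41, 2.61 and 5.95 FPKM in the mutant. hmmr, a spindle assembly factor and hyaluronan receptor, measured 0.6, 0.76 and 0.26 FPKM and 2.37, 0.93 and 3.11 FPKM in wild type and 0.05, 1.5 and 0.11 FPKM and 2.05, 1.02 and 1.57 FPKM in the mutant. Both were apart between wild-type sham and cryoinjury and overlapped in the mutant through sham 2. Over both genotypes the log2 differences were 1.02 ± 0.33 and 0.89 ± 0.26 (limma adjusted p = 0.333 and 0.289).

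Among the regulators, rb1, the retinoblastoma protein that restrains E2F factors, measured 2.63, 2.49 and 1.53 FPKM in wild-type sham and 3.68, 4.01 and 5.73 FPKM in wild-type cryoinjury, and 1.57, 2.48 and 2.045 FPKM and 3.55, 2.61 and 2.86 FPKM in the mutant. Its groups were apart in both genotypes. e2f8, an E2F factor that represses S phase genes, measured 1.08, 0.64 and 0.31 FPKM and 1.54, 1.15 and 2.87 FPKM in wild type and 0.09, 0.94 and 0.38 FPKM and 0.86, 1.09 and 1.52 FPKM in the mutant, and was apart in wild type. Over both genotypes the log2 differences were 0.59 ± 0.16 for rb1 and 0.66 ± 0.21 for e2f8 (limma adjusted p = 0.241 and 0.321).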

How the data were processed

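RNA of 12 whole zebrafish hearts or heart pools (4 groups of 3 libraries) was extracted with Trizol, checked on a BioAnalyzer and made into low-input poly-A libraries for the BGISEQ-500, per the labels' protocols. HISAT, Bowtie2 and the build GRCz11 are named, per the submitters' processing notes; for their versions and order, the counting step, strand use and paralogs, no source used here states anything. FPKM values for 24782 genes were deposited in 1 table. Of its value columns 13 were used, 2 of them for mutant sham 3 and averaged, and 1 that names no sample was not used. Counts were not used; relative depth was estimated from ratios of low FPKM values between libraries, in genes at 0 in several columns, and gives no interval per value.

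Genes with a mean of 1 FPKM or more (13969) were compared as log2(FPKM + 1) with limma 3.58.1 in R 4.3.3, using 1 mean per group, a spread shared by all groups with a trend over expression, and Benjamini-Hochberg adjustment at 0.05 over all tested genes. On simulated data for the wild-type comparison (10 simulations of 13969 genes) the test called 29.4% of genes changed 2-fold, 82.8% of those changed 4-fold, 94.7% of those changed 8-fold and 0.061% of unchanged genes. Changes were planted as folds of FPKM + 1, only in genes with a mean of 5 FPKM or more. Of the 39 tested members 12 reach that mean, so these shares were not measured for the others. Noise was drawn for each gene on its own, so shifts of a whole library were not simulated. The members and gene lists were chosen with earlier results of these data known. Every member is named once, and all library values are given for mki67, the gene with the highest mean in each role, the 5 lowest p in each injury comparison, and the highest and lowest differences among S phase and among G2 and M phase genes. From other lists the 2 genes with the lowest p over both genotypes are named. Of the 46 rows, 45 were matched by gene ID to RefSeq (GRCz12tu), which was used for names only; no coordinates are given because its build differs. Alternatives were another pseudocount, other filters, other scalings, quality weights, a replicate block and leaving out libraries.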

Additional observations from a re-analysis of the deposited data

How the results depend on the processing

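The members' median log2 difference between cryoinjury and sham was above 0 in each genotype under every alternative run, with 0.67 to 1.28 in wild type and 0.33 to 1.28 in the mutant when single libraries were left out. Calls over all genes were less stable. In wild type, quality weights gave 409 called genes and 1 member, fitting only the groups compared gave 8 genes, and leaving out mutant sham 1 and 2 gave 34. In the mutant, no filter gave 3 called genes and median-of-ratios or quantile scaling 1 each. No filter also gave 1 called gene between genotypes after cryoinjury and 1 for the difference in response. Over both genotypes (9 called genes), a filter at 5 FPKM gave 3, median-of-ratios scaling 19, quantile scaling 21, quality weights 290 with 6 members, and leaving out mutant sham 1 and 2 gave 29. Between genotypes over both treatments (1 called gene), no filter and quantile scaling gave 3 each. Quality weights gave 15, and median-of-ratios scaling and TPM scaling gave 0. Leaving out single libraries moved the called genes between 0 and 18 in wild type, 0 and 3 in the mutant, 0 and 2 between sham groups, 0 and 1 for the difference in response, 1 and 428 over both genotypes and 0 and 5 between genotypes, and the called members over both genotypes between 0 and 15.

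The number of members with a smaller response in the mutant (31) was 20 with a pseudocount of 0.1 and 19 with median-of-ratios scaling. With quality weights it was 14, and when single libraries were left out 6 to 39. The median over all genes (−0.175) was −0.206 with that pseudocount, 0.002 with that scaling and −0.195 with quality weights. The share of all genes below 0 was not counted in these fits. Leaving out mutant sham 1 and 2 leaves 1 library in mutant sham. The members' median was then 0.153, against −0.188 over all genes. dut in the mutant was −0.024 with quality weights and −0.006 without mutant sham 1 and 2. Leaving out single libraries moved dut between −0.024 and 0.56 in wild type, −0.40 and 0.59 in the mutant and −0.06 and 0.43 over both, and pcna in the mutant between −0.10 and 0.33. The difference between G2 and M phase and S phase means was −1.22 with a pseudocount of 0.1, −0.90 with a filter at 5 FPKM and −0.57 as medians in mutant sham, −0.78 without a filter in wild-type cryoinjury and −0.86 with a pseudocount of 0.1 in wild-type sham. The cause of these shifts was not tested. Members higher at an unadjusted limma p under 0.05 also varied, with the fit without mutant sham 1 and 2 left aside. The number of members tested and the share of all genes varied too. In wild type the range was 0 of 12 (filter at 5 FPKM, against 7.45% of all genes) to 31 of 43 (only the groups compared, 18.2%). For the mutant it was 1 of 39 (without mutant cryoinjury 3, 2.39%) to 33 of 39 (without mutant sham 2, 9.44%). Over both it was 8 of 12 (filter at 5 FPKM, 7.61%) to 37 of 39 (without mutant sham 2, 17.6%).

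Deviations of same-numbered libraries from their group means correlated at −0.21 to 0.33. Correlations between differently numbered libraries were not computed, so these values cannot show whether the replicate numbers pair the samples. With the replicate block, limma called 3 genes over both genotypes and 0 between genotypes, and no member. In the simulation of the wild-type comparison, with 3 libraries a group, 29.4% of 2-fold changes were called in genes with a mean of 5 FPKM or more. Changes of that size in such genes were often not detectable. Most members lay below that mean, and detection was not measured for them. With only the first or only the second column of mutant sham 3, the members' mutant median was 0.719 or 0.728, against 0.724 with both averaged. Between sham groups it was −0.444 or −0.427, against −0.435. The effect of FPKM without counts was not tested.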

Other observations

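The atrial myosin gene myh6, chosen after its values were seen, varied widely between libraries of whole hearts. It stood at 5.09, 14.68 and 165.08 FPKM in wild-type sham, at 10.83, 253.94 and 32.6 FPKM in wild-type cryoinjury, at 73.24, 184.38 and 220.61 FPKM in mutant sham and at 178.3, 86.49 and 258.44 FPKM in mutant cryoinjury. In both wild-type groups the library highest for myh6 was the lowest in the mean of the replication and mitosis genes, and in the mutant groups it was not. The yolk protein gene vtg1 was at 34.43 FPKM in mutant sham 2 and 34.575 FPKM in mutant sham 3, and at 0 to 3.38 FPKM in the other libraries. The part of either in the results was not tested.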
